A study of Mus musculus with 6 samples.

Results

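Type I interferon-stimulated genes were examined in activated CD8 T cells that carried a GFP-KLF2 fusion or the empty vector. The set comprised 34 listed genes, and its measurements were all probe sets annotated to exactly 1 of them on the Affymetrix mouse array. This rule found 52 probe sets of 32 genes, out of 45037 probe sets and 18194 genes in the whole series. The set was proposed because these genes differed between the same 6 arrays, so the differences between the groups are given below as a description and single members carry no test. *Isg15* was measured by a probe set shared with the pseudogene *Gm9706*, which left it outside the rule, and *Ifi44* was not analysed here.

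Splenocytes of C57BL/6 mice, 8 to 12 weeks old and transgenic for the P14 T cell receptor, which recognises a peptide of LCMV, were stimulated with that peptide for 48 h and then kept in IL-2, for 48 h per the labels. Cytotoxic T lymphocytes (CTL) of this kind were transduced with retrovirus 18 h after the start of the stimulation. They were sorted for GFP and, per the labels, taken for RNA on day 4. A legend of the paper gives a longer time in IL-2 for these arrays, and the conflict was not resolved here. The evGFP group received a vector that encodes GFP alone, and the GFP-KLF2 group the same vector with GFP fused to KLF2, a transcription factor that CTL normally switch off, with 3 arrays per group. Retrovirus, peptide and IL-2 were thus common to all 6 arrays, no array held untransduced cells, and the level of KLF2 was set by the vector and not by its own promoter.

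Type I interferons, the alpha and beta interferons, bind the receptor pair Ifnar1 and Ifnar2. The kinases Jak1 and Tyk2 then act on Stat2, which joins Irf9 in a complex termed ISGF3. This complex binds the interferon-stimulated response element (ISRE) in the promoters of its targets, among them sensors of viral RNA and proteins that block viral translation or destroy RNA. Irf7, itself a target, drives further interferon production. Interferon gamma acts through its own receptor, Jak1 and Jak2, and its targets carry another element, termed GAS. T cells respond to both kinds of interferon, and activated CD8 T cells are a major source of interferon gamma.

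The third GFP-KLF2 array stood apart from replicates 1 and 2 for these genes. It was the lowest of its group for 30 of the 32 members, the exceptions being *Samd9l* and *Oasl1*, whereas it was lowest for 33.5% of all genes. Over the members the median log2 intensity was 7.47, 7.38 and 7.28 in evGFP replicates 1, 2 and 3, and 9.60, 9.43 and 7.44 in the GFP-KLF2 replicates. By contrast, *S1pr1*, the receptor for egress from lymphoid tissue and a known target of KLF2, read 7.62, 7.79 and 7.06 in the evGFP arrays and 9.49, 9.46 and 9.53 in the GFP-KLF2 arrays. For this gene the third GFP-KLF2 array was thus level with its group, and its label was kept. The probe set of *Klf2* itself reads a stretch that the construct lacks and so checks nothing.

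The sorted cells carried the markers of CD8 T cells at high intensity, with 7 genes averaging 12.39 to 12.46 log2 units in evGFP and 12.39 to 12.48 in GFP-KLF2 arrays. Of these 7, *Cd8b1* alone passed, with a difference of 0.45 (adjusted p = 0.0107, limma). Plasmacytoid dendritic cells are the best known producers of type I interferon. None of their 7 measured markers passed the test, where 6.22% of all genes passed as higher and 8.35% as lower. The average of these 7 was 6.14 to 6.20 in evGFP and 6.09 to 6.12 in GFP-KLF2 arrays, and their differences ran from -0.32 to 0.10. The 11 myeloid and dendritic markers averaged 5.42 to 5.52 against 5.56 to 5.72, and the 5 B cell markers 5.49 to 5.78 against 5.71 to 6.13. None of these passed either, although the B cell average was highest, at 6.13, in the third GFP-KLF2 array, the lowest of its group for the members. *Cd68*, a macrophage marker, differed by 0.43 (adjusted p = 0.049, limma) and passed with the replicate number as a block. Of the CD4 T cell markers, *Zbtb7b* passed with a difference of 0.45 (adjusted p = 0.0429, limma). The 3 measured NK cell markers averaged 4.88 to 5.29 in evGFP and 4.8 to 5.33 in GFP-KLF2 arrays, and none passed. The share of other cells in each sort was not measured, and its part in the differences below was not tested.

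The promoters of the members were searched for short motifs. The genes were listed as interferon-stimulated genes, so a raised share of ISRE cores goes with the making of the list and is no result of these arrays. RefSeq windows from 250 bases before to 50 bases after a transcription start (GRCm38.p6) were available for 25 of the 34 listed genes, 31 windows in all. An ISRE core, searched on both strands as GAAA, any 2 bases and GAAA again, or on the other strand as TTTC, any 2 bases and TTTC, occurred in 13 of the 25 genes (52%), against 3.99% of 27025 genes with a window. The shown windows of 30 bases, printed 5′ to 3′ along the strand of the gene, carry the matched letters in capitals and 10 bases on each side, and were taken from members of 5 role groups.
Ifit1, chr19:34640775-34640804, plus strand: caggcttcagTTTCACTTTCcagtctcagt
Ifit1, chr19:34640794-34640823, plus strand: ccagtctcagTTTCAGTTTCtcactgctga
Ifit3, chr19:34583363-34583392, plus strand: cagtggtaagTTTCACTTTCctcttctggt
Ifit3, chr19:34583397-34583426, plus strand: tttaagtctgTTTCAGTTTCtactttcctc
Ifit1bl1, chr19:34602053-34602082, minus strand: actctgtaggTTTCATTTTCtgtaggttgg
Rsad2, chr12:26456553-26456582, minus strand: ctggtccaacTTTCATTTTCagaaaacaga
Isg15, chr4:156200871-156200900, minus strand: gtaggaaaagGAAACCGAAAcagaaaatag
Oas1a, chr5:120907520-120907549, minus strand: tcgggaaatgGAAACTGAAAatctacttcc
Stat2, chr10:128270266-128270295, plus strand: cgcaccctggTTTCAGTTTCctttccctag
Bst2, chr8:71537577-71537606, minus strand: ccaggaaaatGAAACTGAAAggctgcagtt
*Ifit1* and *Ifit3* each held a pair of matches on the same side of the start, and *Isg15* held 3 overlapping ones.

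**Figure D1:**
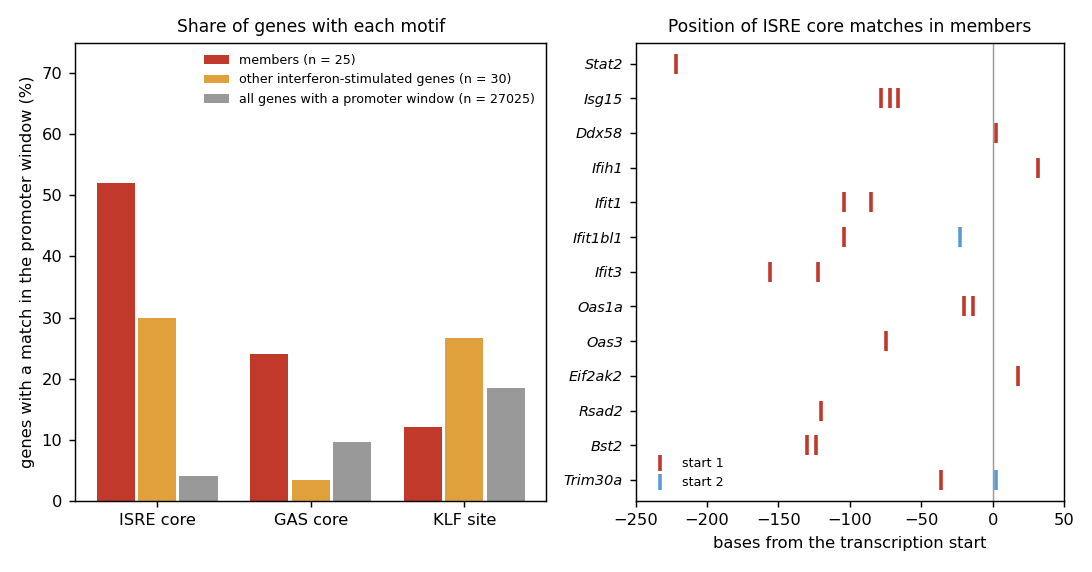
Left, percentage of genes with at least 1 match to each motif in a window from 250 bases before to 50 bases after a transcription start, for the members, the other interferon-stimulated genes and all genes. Right, distance in bases of each ISRE core match from the start, with a tick per match, red for the first and blue for the second annotated start of a gene. ISRE core matches were found in 52% of the members with a window, 30% of the other interferon-stimulated genes and 3.99% of all genes.

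The member windows held 21 ISRE core matches, of which 16 lay within 200 bases upstream of the start and 4 downstream of it, and 7 genes held 2 or more. A GAS core (TTCNNNGAA, the same on both strands) occurred in 6 of the 25 members (24%, against 9.55% of all genes), and 1 ISRE core match, in *Bst2*, overlapped one. A KLF-type site, searched as CCNCACCC or GGGTGNGG, occurred in 3 of the 25 (12%, against 18.4%), namely *Irf7*, *Ifit3* and *Ifi35*. The group difference ran from 0.31 to 4.62 log2 units in the measured members with an ISRE core match. It ran from 0.32 to 2.18 with a window and no match, and from 0.42 to 3.13 without a window. Whether the difference goes with a match was not tested. Its median was 1.32 log2 units in the 12 measured members with a match, 1.42 in the 11 with a window and no match, and 1.24 in the 9 without a window. A match is a description of the letters, and binding was not measured.

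Every measured member was higher on average in GFP-KLF2 than in evGFP CTL. In RNA of sorted cells taken in bulk, more cells with a transcript and more of it per cell cannot be told apart. The median difference was 1.34 log2 units, against -0.01 for all genes, and the range ran from 0.31 for *Eif2ak2* to 4.62 for *Ifit1bl1*. In 25 of the 32 members all 3 GFP-KLF2 arrays lay above all 3 evGFP arrays, as did 14.3% of all genes, and 22 were at least 2-fold higher, as were 2.55%. At an adjusted p under 0.046 in the limma fit over all probe sets, 13 members passed as higher, where 6.22% of all genes did, and none as lower, where 8.35% did. With the replicate number as a block the count was 24, against 8.58% of all genes. Without the third GFP-KLF2 array it was 28, while 5.44% of all genes passed as higher. Without evGFP replicate 1, 2 or 3 it was 3, 2 and 6, with 3.62%, 3.06% and 5.72% of all genes. Without GFP-KLF2 replicate 1 or 2 it was 2 in each case, with 3.75% and 3.82% of all genes.

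**Figure D2:**
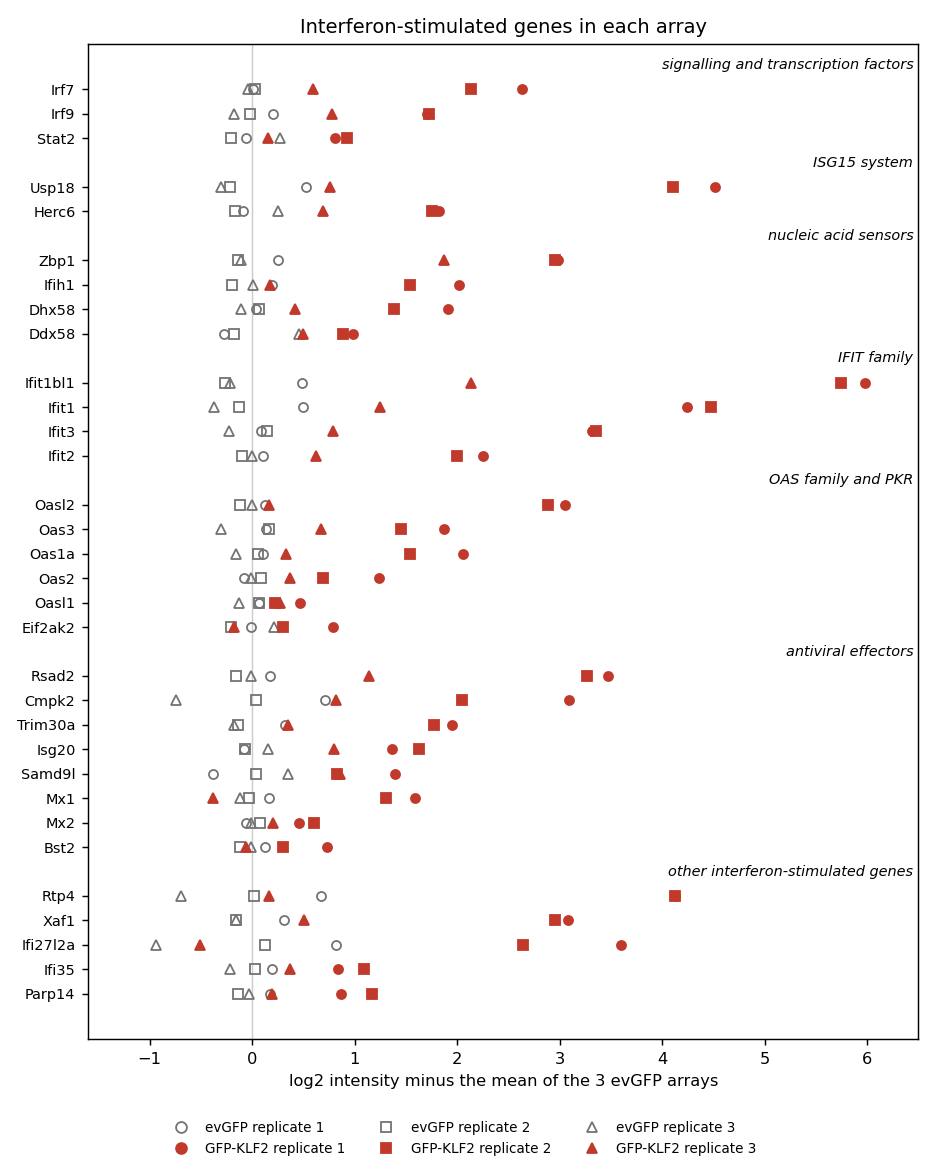
Log2 intensity of each of the 32 measured members in each array, minus the mean of the 3 evGFP arrays, grouped by role. Grey open symbols are evGFP and red filled symbols GFP-KLF2 arrays, with circles, squares and triangles for replicates 1, 2 and 3. The red triangles lie to the left of the other red symbols for 30 of the 32 members.

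The IFIT proteins bind the ends of viral RNA and block its translation, and their genes lie side by side on chromosome 19 (GRCm38.p6, 34550550 to 34662981). As a group they had the largest median difference, 2.90 log2 units over 4 genes. *Ifit1bl1* read 4.35, 3.59 and 3.64 in the evGFP arrays and 9.84, 9.60 and 6.00 in the GFP-KLF2 arrays, a difference of 4.62 ± 0.93 (SE, n = 3 per group). Its evGFP average lay under the lower quartile of the arrays, 4.18 to 4.25, so that its fold is imprecise, while its GFP-KLF2 arrays lay well within the scale. *Ifit1* read 5.13, 4.51 and 4.27 against 8.88, 9.11 and 5.89, a difference of 3.32 ± 0.78. *Ifit2* read 7.67, 7.48 and 7.57 against 9.83, 9.57 and 8.20, a difference of 1.63 ± 0.38. The groups did not overlap for these genes or for *Ifit3*, with a difference of 2.49 ± 0.63, and in each the third GFP-KLF2 array was nearer to evGFP than the others were.

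Of the factors that carry the signal to the nucleus, *Irf9*, the DNA-binding subunit of ISGF3, read 8.47, 8.25 and 8.09 in evGFP and 9.97, 9.998 and 9.05 in GFP-KLF2 arrays, a difference of 1.40 ± 0.25. *Irf7* read 6.34, 6.36 and 6.29 against 8.97, 8.47 and 6.93, a difference of 1.79 ± 0.45. Neither gene had overlapping groups. *Stat2*, a subunit of ISGF3, differed by 0.63 ± 0.21, and in replicate 3 its GFP-KLF2 array, at 7.03, was below the evGFP array, at 7.14.

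ISG15 is a ubiquitin-like protein that is joined to other proteins during an interferon response. *Usp18*, which removes ISG15 and also restrains the type I receptor, read 5.77, 5.03 and 4.95 in evGFP and 9.76, 9.36 and 6.01 in GFP-KLF2 arrays, a difference of 3.13 ± 0.89. *Herc6*, the ligase that attaches ISG15 in the mouse, read 7.65, 7.58 and 7.99 against 9.56, 9.49 and 8.43, a difference of 1.42 ± 0.29. Its 4 probe sets gave differences of 0.86 to 1.42. The probe set that *Isg15* shares with *Gm9706*, named after its values were seen, read 7.02, 6.70 and 6.54 against 10.04, 9.95 and 7.64, and reads of the gene and the pseudogene cannot be told apart there. All 3 were separated between the groups, with the third GFP-KLF2 array lowest.

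Among the sensors of foreign nucleic acid, *Zbp1*, which detects Z-form nucleic acid and can trigger necroptosis, read 8.28, 7.88 and 7.91 in evGFP and 11.01, 10.98 and 9.89 in GFP-KLF2 arrays. The difference was 2.60 ± 0.29, and a second probe set gave 2.53. In this gene the third GFP-KLF2 array was still far above every evGFP array. *Ifih1*, encoding the RNA helicase MDA5, differed by 1.24 ± 0.42, and *Dhx58*, its cofactor LGP2, by 1.24 ± 0.33. The groups of *Ifih1* overlapped, with the third GFP-KLF2 array at 7.26 and the first evGFP array at 7.28. The other probe sets of *Dhx58* gave 0.96 and -0.05, the latter near the lower end of the scale. *Ddx58*, encoding RIG-I, differed by 0.79 ± 0.21, with 0.94 and 0.13 for its other probe sets, and its evGFP and GFP-KLF2 arrays of replicate 3 were nearly level, at 9.15 and 9.19.

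The OAS enzymes make short oligoadenylates that switch on RNase L, and their genes occupy a pair of stretches of chromosome 5. *Oasl2* read 3.67, 3.42 and 3.54 in evGFP and 6.59, 6.43 and 3.71 in GFP-KLF2 arrays, a difference of 2.03 ± 0.69. The third GFP-KLF2 array thus stood at the lower end of the scale, where the evGFP arrays were. *Oas1a* read 7.69, 7.64 and 7.43 against 9.64, 9.12 and 7.91, a difference of 1.31 ± 0.38, and *Oas3* and *Oas2* differed by 1.33 ± 0.29 and 0.77 ± 0.20. *Oasl1*, which represses the translation of *Irf7*, read 5.71, 5.71 and 5.52 against 6.12, 5.87 and 5.92, a difference of 0.32 ± 0.10. It was among the smallest differences of the set, and the only one that was not smaller in pair 3, at 0.40, than the average of pairs 1 and 2. *Eif2ak2*, encoding the kinase PKR that halts translation, read 7.74, 7.55 and 7.97 against 8.54, 8.05 and 7.57, a difference of 0.31 ± 0.23 with overlapping groups. Its other probe sets gave 0.18 and 0.21.

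Of the antiviral effectors, *Rsad2*, encoding viperin, read 6.13, 5.80 and 5.94 in evGFP and 9.43, 9.23 and 7.10 in GFP-KLF2 arrays, a difference of 2.63 ± 0.55. Its other probe sets gave 2.81 and 2.39. *Cmpk2*, a nucleotide kinase encoded next to *Rsad2* on chromosome 12, differed by 1.99 ± 0.57, with 0.41 for a dimmer probe set. *Trim30a*, a restraint on Toll-like receptor signalling, differed by 1.36 ± 0.39, the exonuclease *Isg20* by 1.26 ± 0.20 and *Samd9l* by 1.03 ± 0.22. The groups did not overlap in any of these. *Mx1* and *Mx2*, dynamin-like GTPases that common laboratory strains carry in a defective form, differed by 0.84 ± 0.46 and 0.42 ± 0.11. *Bst2*, encoding tetherin, read 10.44, 10.20 and 10.30 against 11.04, 10.61 and 10.25, a difference of 0.32 ± 0.19, and its groups overlapped, as did those of *Mx1*.

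The remaining members have less uniform roles. *Rtp4*, a chaperone-like protein that dampens the interferon response, read 6.78, 6.13 and 5.41 in evGFP and 10.24, 10.23 and 6.27 in GFP-KLF2 arrays, a difference of 2.80 ± 1.01. The groups overlapped, since the third GFP-KLF2 array was below the first evGFP array. *Xaf1*, an antagonist of the apoptosis inhibitor XIAP, differed by 2.18 ± 0.63, and *Ifi27l2a* by 1.91 ± 0.98. The groups of *Ifi27l2a* overlapped too, with the third GFP-KLF2 array at 8.77 and the first evGFP array at 10.09. Second probe sets of *Rtp4* and *Xaf1*, both near the lower end of the scale, gave 0.29 and 0.48. *Ifi35* read 12.28, 12.12 and 11.87 against 12.92, 13.17 and 12.45, a difference of 0.76 ± 0.19 without overlap. *Parp14*, a mono-ADP-ribosyltransferase, differed by 0.74 ± 0.23.

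Arrays were then compared within each replicate number, since arrays with the same number deviated alike over all probe sets. Over the members alone, the deviations of same-numbered arrays correlated at 0.755, -0.255 and 0.64 for replicates 1, 2 and 3, so that the arrays of replicate 2 did not deviate alike for these genes. This correlation is across genes. Over the members the median difference was 1.85 log2 units in pair 1, 1.74 in pair 2 and 0.52 in pair 3, against -0.03, -0.02 and -0.00 for all genes. In pairs 1 and 2 every member was higher in the GFP-KLF2 array, where 44.89% and 46% of all genes were. At least 2-fold higher were 25 and 26 of the 32, a share not counted by pair for all genes. In pair 3, 28 were higher, where 49.75% of all genes were, and 7 were at least 2-fold higher. Hence 28 members were higher in all 3 pairs, as were 23.5% of all genes. The difference in pair 3 was a median of 29.56% of the average of pairs 1 and 2. It was under 25% for 12 members and below 0 for 4, *Mx1*, *Eif2ak2*, *Stat2* and *Bst2*.

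**Figure D3:**
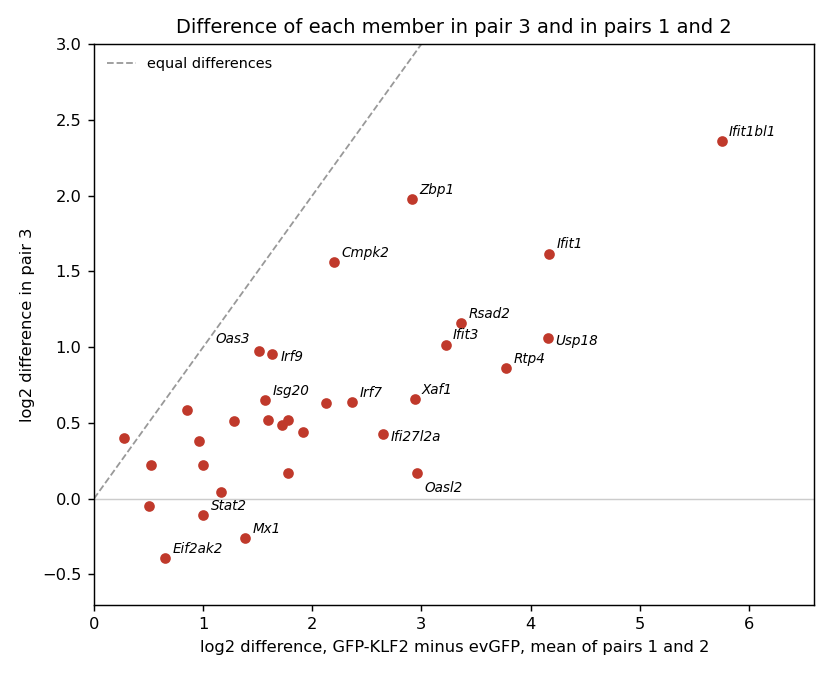
Log2 difference, GFP-KLF2 minus evGFP, of each of the 32 members in pair 3 against the average of pairs 1 and 2, with a dashed line where both are equal. All points but that of *Oasl1* lie under the line, and 4 lie below 0.

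Some members kept more of their difference in pair 3. In 6 it was at least 50% of the average of pairs 1 and 2, namely *Oasl1* (142.5%), *Cmpk2* (70.94%), *Ifi35* (68.94%), *Zbp1* (67.84%), *Oas3* (64.84%) and *Irf9* (58.55%). They came from 5 of the 7 role groups. The GFP-KLF2 arrays of pairs 1 and 2 lay close together for most members. GFP-KLF2 replicates 1 and 2 differed by less than 1 log2 unit in 31 of the 32 members, with a median of 0.25. *Cmpk2* was the exception, at 1.04.

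The spread among the GFP-KLF2 arrays was wider for the members than for other genes. The range from the lowest to the highest GFP-KLF2 array had a median of 1.55 log2 units over the members and 0.21 over all genes, while the range among evGFP arrays was 0.39 against 0.22. It was over 1 in 20 of the 32 members and in 1.95% of all genes. Of the 355 genes with such a range, 20 were members, 10 other interferon-stimulated genes, 6 interferon-gamma-linked genes and 319 on no list. All genes were also ranked by how far the average of GFP-KLF2 replicates 1 and 2 exceeded replicate 3. Members took 6 of the top 10 places, 9 of the top 20 and 19 of the top 100, with *Rtp4* (3.96 log2 units), *Ifit1bl1* (3.72), *Ifi27l2a* (3.63) and *Usp18* (3.55) at ranks 2 to 5. The top rank went to *Zfp979*, which was low in replicate 3 of both groups, at 3.34 in evGFP and 3.62 in GFP-KLF2. Over the members, evGFP replicates 1 and 2 exceeded replicate 3 by a median of 0.16, and GFP-KLF2 replicates by 1.35. In 3 members the evGFP gap was over 1, at 1.41 for *Ifi27l2a*, 1.11 for *Cmpk2* and 1.04 for *Rtp4*. In addition, 14 members were lowest in replicate 3 of both groups. Of all genes, 42.2% were lowest in replicate 3 of the evGFP group and 33.5% in that of the GFP-KLF2 group. The share lowest in both was not counted.

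A test of the replicate number, with the group as a covariate, called none of the 32 members in limma, where it called 0.159% of all genes. At an unadjusted p under 0.05 it took in 11 members, against 14.3% of all genes. With 3 arrays per group this test has few degrees of freedom, and it looks for shifts common to both groups, not for a difference confined to the GFP-KLF2 arrays. The sources used here give no batch, sort or day for single arrays, so none was tested.

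The genes upstream of the members were read from lists of ligands, receptors, kinases, interferon regulatory factors, inducers and negative regulators, of which 45 of 60 were measured. In limma 9 rose and 3 fell (background 6.22% and 8.35%), and with the replicate block 13 rose and 3 fell (background 8.58% and 12.1%). The median difference was 0.10 log2 units. Without the third GFP-KLF2 array 10 rose and none fell (5.44% and 6.11% of all genes). Without evGFP replicate 2 or GFP-KLF2 replicate 1 or 2 there were 3, 4 and 4 rises, with 3.06%, 3.75% and 3.82% of all genes. The falls also came to none without evGFP replicate 1 or 2 or GFP-KLF2 replicate 2, when 3.7%, 3.25% and 3.95% of all genes fell. They came to 2 without evGFP replicate 3 or GFP-KLF2 replicate 1, when 6.22% and 3.69% did.

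Of 10 interferon genes measured out of 21 listed, *Ifng*, encoding interferon gamma, was the only one to rise. It read 7.04, 6.08 and 4.74 in evGFP and 9.24, 8.72 and 8.25 in GFP-KLF2 arrays, a rise of 2.79 ± 0.53 log2 units (adjusted p = 0.0171, limma). Its difference was 2.21, 2.64 and 3.51 in pairs 1, 2 and 3. *Ifng* was lowest in replicate 3 of both groups, and its relation to the members was not tested. The call was lost without evGFP replicate 2 or GFP-KLF2 replicate 1 or 2 (highest adjusted p = 0.0631, limma). *Ifnb1*, encoding interferon beta, read 4.62, 4.73 and 4.77 against 4.72, 4.97 and 4.73, a difference of 0.10 ± 0.10 (adjusted p = 0.612, limma). The 7 measured alpha interferon genes, *Ifna1*, *Ifna2*, *Ifna4*, *Ifna5*, *Ifna9*, *Ifna11* and *Ifnab*, differed by -0.13 to 0.41 and did not pass. Of these *Ifna2*, named after its values were seen, passed with the replicate block (difference 0.41, adjusted p = 0.0154, limma). *Ifna11*, *Ifnab* and *Ifna4* averaged 3.63, 3.75 and 4.20 in evGFP arrays, near or under the lower quartile of the arrays, 4.18 to 4.25. A change at that level may go unseen. Protein was not measured.

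*Ifnar1*, 1 chain of the type I receptor, rose by 0.45 ± 0.10 (adjusted p = 0.0329, limma), and *Ifnar2*, the other, fell by 0.50 ± 0.12 (adjusted p = 0.0401). Of the receptor for interferon gamma, *Ifngr1* rose by 0.72 ± 0.12 (adjusted p = 0.0124) and *Ifngr2* fell by 0.29 ± 0.07 (adjusted p = 0.0431, and 0.0522 with the replicate block, limma). The chains of each receptor thus moved in opposite directions. *Il10rb*, on the receptor list and named after its values were seen, passed only with the replicate block (difference -0.52, adjusted p = 0.013, limma). The calls for both *Ifnar* genes were lost in 5 of 6 fits that left out an array, those for *Ifngr2* in all 6 and that for *Ifngr1* in 1. *Jak2* rose by 0.99 ± 0.13 (adjusted p = 0.00474) and *Jak1* by 0.73 ± 0.13 (adjusted p = 0.0134, passing in 3 of 6 fits that left out an array), while *Tyk2* differed by 0.09 (adjusted p = 0.573, limma).

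Of the other interferon regulatory factors, *Irf8* rose by 0.72 ± 0.15 (adjusted p = 0.0251, limma) and *Irf2*, a repressor of interferon targets, by 0.49 ± 0.12 (adjusted p = 0.0395, limma). *Irf1* differed by 0.91 ± 0.24 and missed the threshold (adjusted p = 0.048, and 0.00628 with the replicate block, limma). *Sting1*, the adaptor for cytosolic DNA, fell by 0.55 ± 0.11 (adjusted p = 0.0203, limma) and was the only one of 13 measured inducers of interferon to pass without the block. With the replicate block *Trim25* and *Ikbke*, named after their values were seen, also passed, with differences of 0.55 and 0.43 (adjusted p = 0.0273 and 0.0172, limma). Of 7 measured negative regulators, 2 rose and none fell. *Socs3*, an inhibitor of cytokine receptors, rose by 2.08 ± 0.18 (adjusted p = 0.00127, limma) and *Samhd1*, a nucleotide hydrolase that limits nucleic acid sensing, by 1.57 ± 0.23 (adjusted p = 0.00677, limma). *Socs1* differed by 0.10 (adjusted p = 0.675, limma). In pair 3 the difference was 2.11 for *Socs3* and 1.56 for *Samhd1*, near the values of 2.00 and 1.39 in pair 1. *Jak2*, *Socs3* and *Samhd1* passed whichever array was left out, while *Irf8* passed only without evGFP replicate 3, *Irf2* only without GFP-KLF2 replicate 3, and *Sting1* in 2 of 6 such fits.

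A list of other interferon-stimulated genes, not among the members, had 36 of 40 genes measured. In limma 10 rose and none fell (background 6.22% and 8.35%). With the replicate block 15 rose and 1, *Pnpt1*, fell (background 8.58% and 12.1%). Their median difference was 0.55 log2 units, lower than the 1.34 of the members. *Ifi204*, a DNA-binding member of the p200 family, read 3.88, 3.55 and 3.39 in evGFP and 7.91, 8.14 and 4.89 in GFP-KLF2 arrays, a rise of 3.37 ± 0.77 (adjusted p = 0.0322, limma). Its evGFP mean, 3.61, lay under the lower quartile of the arrays, so that this fold is imprecise too. *Ms4a4c*, a membrane protein, read 6.89, 7.21 and 6.83 against 10.65, 10.42 and 9.08, a rise of 3.08 ± 0.37 (adjusted p = 0.0036, limma). *Slfn1*, a Schlafen protein, rose by 1.56 ± 0.32 (adjusted p = 0.022) and *Trim34a* by 1.38 ± 0.28 (adjusted p = 0.0202, limma). The GFP-KLF2 array of replicate 3 was again the lowest of its group in all 4 of these, and in 25 of the 36 genes. The pair medians were 0.72, 0.70 and 0.14. Leaving out the third GFP-KLF2 array gave 23 rises (5.44% of all genes), and leaving out any other array 3 to 7 (3.06% to 5.72%). *Ms4a4c* passed in all 6 of these fits, *Trim34a* in 2, and *Ifi204* and *Slfn1* in 1.

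**Figure D4:**
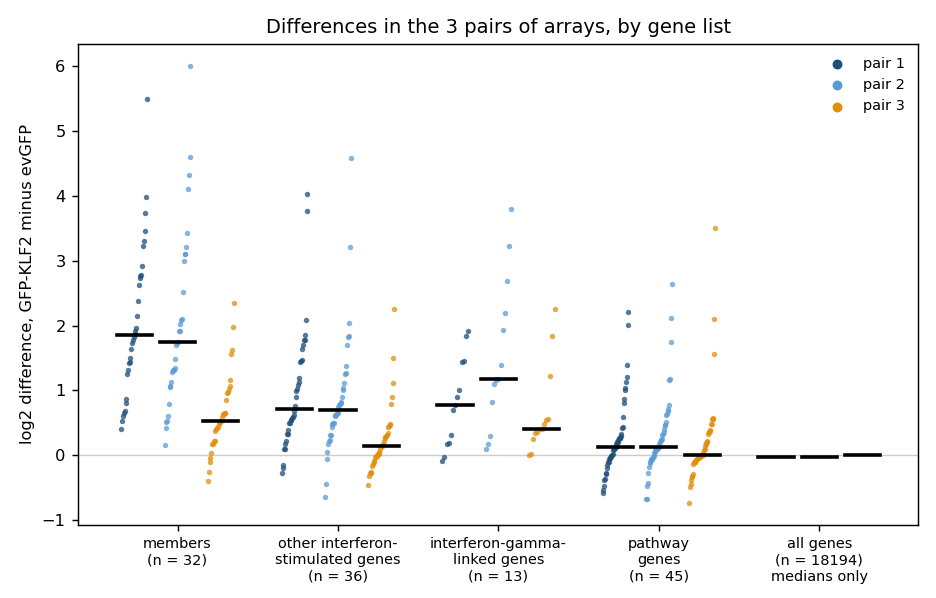
Log2 difference, GFP-KLF2 minus evGFP, in pairs 1, 2 and 3 of arrays for each gene of 4 lists, with a point per gene and a black bar at the median. For all 18194 genes the medians alone are drawn. The median of the members is 1.85, 1.74 and 0.52, and that of the interferon-gamma-linked genes 0.78, 1.17 and 0.41.

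Genes that interferon gamma induces strongly, mostly GTPases that attack the vacuoles of intracellular pathogens, had 13 of 18 members measured. *Gbp3* rose by 0.81 ± 0.15 (adjusted p = 0.0155, limma) and *Irgm2* by 0.78 ± 0.19 (adjusted p = 0.0428, limma), 2 genes in all where 6.22% of all genes rose, and none fell. With the replicate block 8 rose (8.58% of all genes), and without the third GFP-KLF2 array 7 (5.44%). Leaving out any other array gave 0 or 1 (3.06% to 5.72%). All 13 had a difference above 0, with a median of 0.82 log2 units. Within groups, several of them differed widely between replicates of both groups. *Iigp1*, named after its values were seen, read 9.74, 7.51 and 6.06 in evGFP and 11.58, 11.30 and 8.31 in GFP-KLF2 arrays, a difference of 2.63 (adjusted p = 0.189, and 0.00556 with the replicate block, limma). *Gbp2*, likewise, read 10.75, 9.77 and 9.02 against 12.66, 13.00 and 10.87, a difference of 2.33 (adjusted p = 0.0492, and 0.00368 with the replicate block, limma). Both genes were at their lowest in replicate 3 of both groups, as were 14 of the 32 members. The difference in pairs 1, 2 and 3 was 1.84, 3.79 and 2.25 for *Iigp1*, and 1.91, 3.23 and 1.84 for *Gbp2*. Whether this list differs from the members across pairs was not tested.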

How the data were processed

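RNA of 3 evGFP and 3 GFP-KLF2 samples was put on Affymetrix mouse arrays that read the 3′ ends of transcripts. Per the labels and methods, the authors ran RMA and then limma, with versions not given in the sources used here, and deposited an intensity per probe set on a linear scale. Here log2 was taken, 64 control probe sets were removed, and probe sets were named from the platform annotation, updated through RefSeq. Of 45037 probe sets, 34945 had 1 gene, 932 several and 9160 none. A gene is its probe set with the highest mean. Groups were fitted over all 45037 probe sets with limma 3.58.1 in R 4.3.3, 2-sided, with Benjamini-Hochberg adjustment over these and a threshold of 0.046, and calls were counted over 18194 genes. The methods print the threshold as 0.046%, which is 0.00046 as a fraction. It was read here as 0.046, and at 0.00046 none of the members or of the other listed interferon genes passed. Depth does not apply to arrays, and their number, 3 per group, limits precision. An exact permutation test of 3 against 3 cannot give a p below 0.1. The labels call the samples biological replicates, without saying whether each came from a separate mouse.

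Replicate numbers were checked for pairing. Deviations from the group mean correlated at 0.325, 0.442 and 0.466 across probe sets for arrays of the same number, against -0.38 to 0.0578 for other combinations. The Y-linked *Eif2s3y* was high in both arrays of replicate 2 (10.39 and 10.11) and low in the other 4 (3.26 to 3.37). Replicate 2 thus held cells from male donors, unlike replicates 1 and 3, so donor sex differed between replicate numbers. The numbers were therefore taken to pair the arrays. Blocked values are printed for the counts of the lists and for named genes whose call depends on the block.

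The members, gene lists, tests and the rule for named genes were chosen with earlier results of these data known. Values in every array are given for the brightest and the most different member of each role group and for the 5 largest and 3 smallest differences. Pathway genes were named as up to 4 passing genes per list plus the main ligands, receptors and *Irf1*. The alternatives were other thresholds, removal of dim or cross-hybridising probe sets, averaging a gene's probe sets, centring, quantile normalization, an intensity trend, the block and leaving out each array. The fit was checked on simulated data. Promoter windows came from RefSeq tables of GRCm38.p6.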

Additional observations from a re-analysis of the deposited data

How the results depend on the processing

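Each member kept a difference above 0 in all 351 values from alternatives that can move it. These leave out the other thresholds, the block and the intensity trend. The members were proposed for differing between these same arrays, so this count describes the processing and is no further support for the difference. Centring on medians and quantile normalization shifted the median of all genes by -0.0109 and -0.00375 log2 units. The median of the members was 1.06 to 1.78 when an array was left out. The number of members that passed as higher, 13, was 0 at an adjusted p of 0.00046, 7 with an intensity trend and robust prior, 24 with the replicate block, and 2 to 28 when an array was left out. For the other interferon-stimulated genes the count of 10 became 0 at 0.00046, 6 with a 2-fold minimum and 3 to 23 when an array was left out. For the upstream genes the 9 rises became 0 at 0.00046, 3 with a 2-fold minimum and 3 to 10 when an array was left out. Their 3 falls became 0 at 0.00046 and with a 2-fold minimum, 1 with quantile normalization and 0 to 2 when an array was left out. For the interferon-gamma-linked genes the count of 2 became 4 at 0.05, 0 at 0.00046 and with a 2-fold minimum, 4 without dim probe sets, 8 with the replicate block and 0 to 7 when an array was left out. The test of the replicate number called 1 member with an intensity trend and robust prior and none otherwise. The share of all genes that passed was counted for the main fits, the replicate block and the group fits without an array. It was not counted for the other settings, so whether their counts moved with all genes is not known. Of single upstream lists, the replicate block moved the rises among inducers from 0 to 2 and among ligands from 1 to 2. The cause of these shifts was not tested, except that leaving out an array reduces the samples. Signal near the lower end of the scale limits *Ifit1bl1*, *Oasl2*, *Ifi204*, *Ifna4*, *Ifna11* and *Ifnab* in evGFP arrays. Affymetrix probe sets at the 3′ end cannot tell closely related genes apart.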
